A study of Mus musculus with 6 samples.

Results

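The cytochrome P450 (Cyp) genes of families 1 to 4, with their electron donors Por and Cyb5a and the receptors Nr1i2 and Ahr, were followed in mouse liver during concanavalin A hepatitis. Members were taken by symbol, as every gene of the deposited table whose name starts with Cyp1, Cyp2, Cyp3 or Cyp4 and a subfamily letter, plus those 4 genes. This gave 64 members of 14669 genes, of which 60 were P450 genes. The mice were wild-type C57BL/6J males of 8 weeks. Each had received 25 µg of a plko plasmid with 2.5 ml of saline hydrodynamically, a rapid large-volume injection that brings DNA into liver cells. In the control group the plasmid held a scramble sequence, and in the other group a short hairpin RNA against Bicd2 (shBicd2), a gene for an adaptor of the dynein motor. On day 3 both groups received 15 mg/kg of concanavalin A (ConA), a lectin that activates T cells, into a vein, and the liver was collected after 6 h. Each group had 3 libraries, which carry the names Sc3, Sc4 and Sc5 in the scramble group and sh1, sh3 and sh6 in the shBicd2 group. No mouse without ConA was sequenced among the libraries used here, so each comparison is between plasmids during hepatitis.

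Microsomal P450 enzymes sit in the endoplasmic reticulum of hepatocytes and oxidize drugs, fatty acids, steroids and bile acids at a heme iron. Electrons reach the heme from NADPH through the reductase Por, and for some reactions through cytochrome b5 (Cyb5a). Families 1 to 3 are known for drugs and foreign chemicals and family 4 for fatty acids, and many members are induced through receptors, such as Ahr for Cyp1 and Nr1i2 (the pregnane X receptor, PXR) for Cyp3a. Inflammation is known to lower many hepatic P450 transcripts. The shared sequence of the family is the loop that holds the heme, in which phenylalanine, glycine, cysteine and glycine stand at fixed places and the cysteine binds the iron. The 30 coding bases of this loop are shown for abundant or named members of each family. They come from the longest GENCODE M21 coding sequence, with the codon of the iron-binding cysteine in capitals.
Cyp1a2: ttcggcttgggaaagcgccggTGCattggg
Cyp2e1: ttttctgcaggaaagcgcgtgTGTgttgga
Cyp2c67: ttctcagcaggaaaacggattTGTgtggga
Cyp3a11: tttgggaatggacccaggaacTGCcttggc
Cyp4a12a: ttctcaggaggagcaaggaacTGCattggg
Cyp4f17: ttttctgctgggcctaggaacTGCatagga
The pattern was found in 54 of the 57 P450 members with a coding sequence in that annotation, written in 44 different ways, and in none of the 4 partner and receptor genes. The cysteine codon was TGC in 31 members and TGT in 23. No match was found in Cyp2b10, Cyp2s1 and Cyp3a59, which says only that these letters are not in the sequence searched.

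Transcript levels are given as FPKM, fragment counts scaled to gene length and to the total counted, which allows levels to be set beside each other between genes. A member was tested if its mean over the 6 libraries was at least 1 FPKM, which left 52 of the 64 members and 10152 genes. A fold change is shBicd2 minus scramble on the log2(FPKM + 1) scale, where the added 1 shrinks the change of low genes. Depth, worked out from how low values step, was 16.03 to 18.93 M reads per library, and the groups overlapped in depth. The targeted gene, Bicd2, stood at 4.14, 3.43 and 3.13 FPKM for scramble (Sc3, Sc4, Sc5) and at 3.61, 2.57 and 2.97 FPKM for shBicd2 (sh1, sh3, sh6). Its groups overlapped, with a log2 fold change of -0.17 ± 0.16 (SE), an adjusted p of 0.624 in limma and an exact two-sided permutation p of 0.4, where 0.1 is the smallest possible. Separate animals are not stated in the labels, so p-values measure only the spread between these libraries. In bulk liver, fewer hepatocytes and less RNA per hepatocyte cannot be told apart. Hepatocyte markers summed to 29258 to 35421 FPKM with scramble and 36727 to 44186 FPKM with shBicd2, without overlap, and 7 of the 11 tested markers had a higher mean in shBicd2. Their part in the P450 values was not tested.

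Total P450 output overlapped between the groups, and the subfamilies differed in direction. The 60 P450 members summed to 4452, 4890 and 4758 FPKM for scramble (Sc3, Sc4, Sc5) and to 4718, 5618 and 5176 FPKM for shBicd2 (sh1, sh3, sh6). The groups overlapped, and the ratio of the means was 1.10. Subfamilies Cyp1a, Cyp2d and Cyp3a, and Cyp2f with its single gene, had higher sums in every shBicd2 library than in any scramble library. Cyp2g and Cyp1b, each with a single gene under 1 FPKM, also did not overlap, with Cyp2g higher and Cyp1b lower in shBicd2. Sums of Cyp2a, Cyp2c, Cyp2j, Cyp4a and Cyp4f overlapped between the groups, as did the remaining subfamilies of a single gene.

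**Figure D1:**
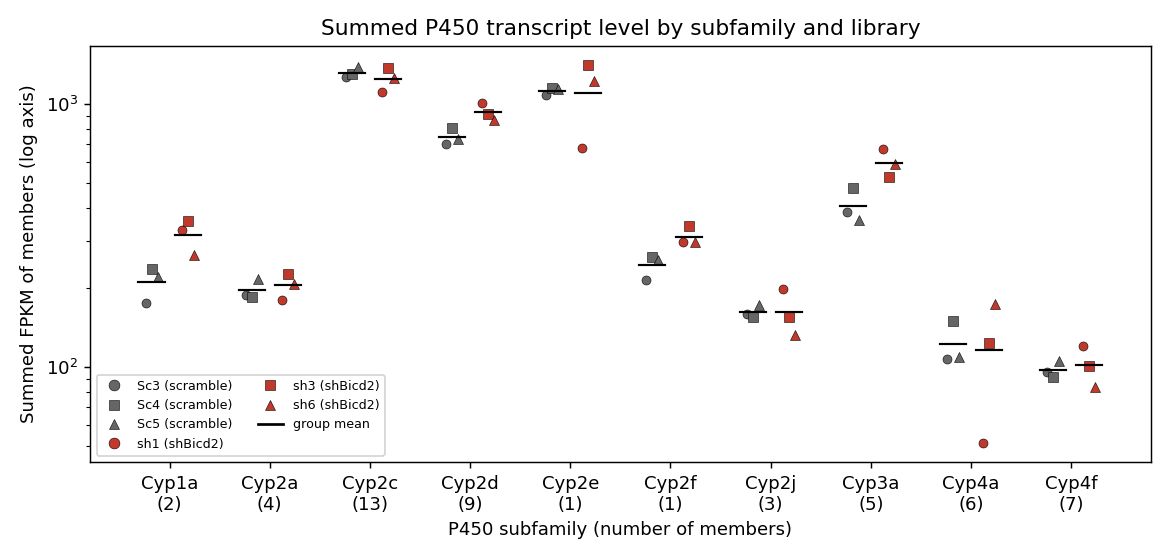
Summed FPKM (log axis) of the members of each P450 subfamily with more than 1 member, and of Cyp2e and Cyp2f. There is 1 symbol per library, scramble in grey and shBicd2 in red, with a bar at each group mean. Cyp1a, Cyp2d, Cyp2f and Cyp3a separate, with all shBicd2 libraries above all scramble libraries, while Cyp2e and Cyp4a hold 1 low library, sh1, at 681 and 51.1 FPKM.

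No member passed an adjusted p of 0.05 (limma, Benjamini-Hochberg over all genes tested), and neither did any other gene, so the share called was 0.0% of 10152 genes. The smallest adjusted p among members was 0.198, for Cyp2j9. At an unadjusted p under 0.05, 5 members were higher in shBicd2 (Cyb5a, Cyp1a2, Cyp2a12, Cyp2j9 and Cyp4a31), beside 2.97% of all genes tested. At the same limit 2 members were lower (Cyp2c67 and Cyp4f17), beside 12.7% of all genes tested. Groups did not overlap in 7 members that were higher in shBicd2, beside 5.7% of all genes, namely Cyb5a, Cyp1a2, Cyp2a12, Cyp2d10, Cyp2f2, Cyp2j9 and Cyp3a59. They did not overlap in 3 members that were lower, beside 18.7% of all genes, namely Ahr, Cyp2c67 and Cyp4f17. Of the 52 tested members 29 had a higher mean log2 value in shBicd2, beside 41.4% of all genes, and the median fold change was 0.09 against -0.06 over all genes. With array weights, 12 members were called higher, beside 8.37% of all genes, and 3 lower, beside 18.3%. By family, 1 of 1 tested Cyp1 member, 18 of 29 Cyp2, 4 of 4 Cyp3 and 4 of 14 Cyp4 members had a positive fold change.

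**Figure D2:**
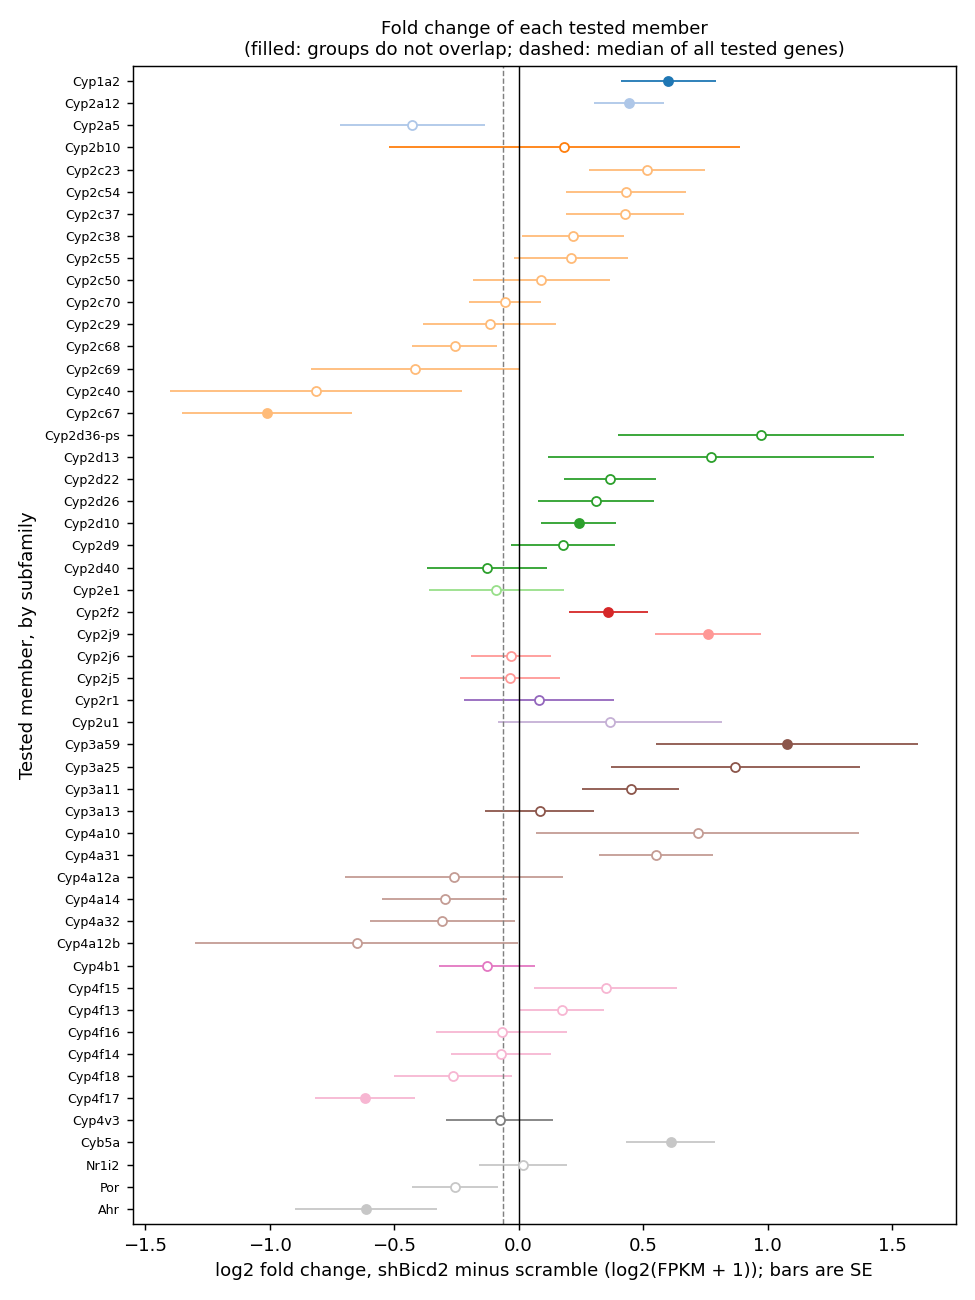
Log2 fold change (shBicd2 minus scramble, log2(FPKM + 1)) of each of the 52 tested members, grouped by subfamily, with bars of 1 SE. Filled points mark members whose groups do not overlap, and the dashed line is the median of all tested genes, -0.06.

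The electron donors had fold changes of opposite sign. Cyb5a, which hands electrons to some P450 reactions, was measured at 77.4, 86.8 and 86.3 FPKM for scramble (Sc3, Sc4, Sc5) and at 150, 132 and 105 FPKM for shBicd2 (sh1, sh3, sh6). Every shBicd2 library lay above every scramble library, and sh1 was the highest. The means were 83.5 ± 5.27 and 129 ± 22.6 FPKM (SD, n = 3 each), a log2 fold change of 0.61 ± 0.18 (SE) with a limma adjusted p of 0.200. Por, the NADPH reductase on which all microsomal P450 enzymes draw, was measured at 120, 104 and 118 FPKM with scramble and 79.9, 110 and 99.1 FPKM with shBicd2. The sh3 library lay within the scramble range and sh1 and sh6 below it, with a log2 fold change of -0.25 ± 0.17 and a limma adjusted p of 0.513. Without sh1 the log2 fold change was -0.13, and on the TPM scale the groups of Por did not overlap.

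Among 7 other genes of the electron chain and of epoxide hydrolysis, 4 had a positive and 3 a negative fold change, with a median of 0.02. Cyb5r3, which reduces cytochrome b5, had means of 41.4 ± 2.91 FPKM with scramble and 56.9 ± 7.60 FPKM with shBicd2 (SD, n = 3), without overlap and with a log2 fold change of 0.44 ± 0.16. Ephx1, the microsomal epoxide hydrolase that opens epoxides made by P450 enzymes, overlapped between the groups. Of 12 genes that make or break down heme, 10 had a positive fold change and the median was 0.18. Alad, an early enzyme of heme synthesis, was measured at 18.6, 17.6 and 17.4 FPKM with scramble and 53.7, 25.5 and 27.7 FPKM with shBicd2, without overlap. Hmox1, the inducible oxygenase that breaks heme down, was measured at 322, 234 and 507 FPKM with scramble and 51.4, 350 and 82.6 FPKM with shBicd2. Its sh1 and sh6 values lay below all scramble values, whereas sh3 lay among them.

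Cyp1 was carried by a single gene. Cyp1a2, which oxidizes caffeine and aromatic amines and lies at chr9:57676937-57683703 (minus strand, mm10), was measured at 174, 234 and 219 FPKM for scramble (Sc3, Sc4, Sc5). With shBicd2 it was measured at 331, 357 and 265 FPKM (sh1, sh3, sh6). All shBicd2 libraries lay above all scramble libraries, with sh6 the closest. The means were 209 ± 31.1 and 318 ± 47.2 FPKM (SD, n = 3), 1.52 times apart, with a log2 fold change of 0.60 ± 0.19 and a limma adjusted p of 0.218. Its neighbour Cyp1a1, the classical sign of Ahr activation, was at 0.0403, 0.18 and 0.0895 FPKM with scramble and 0.491, 0.151 and 0.0758 FPKM with shBicd2. These levels rest on 2 to 25 reads, and the groups overlapped. Cyp1b1 (chr17:79701537-79715061), a P450 known from stromal and endothelial cells, had lower values in shBicd2. It was at 0.914, 0.754 and 0.790 FPKM with scramble and 0.197, 0.392 and 0.516 FPKM with shBicd2, on 21 to 95 reads, without overlap. Markers of endothelial cells (25.7 to 33.8 FPKM in scramble, 17.7 to 23.2 in shBicd2) and stellate cells (38.5 to 48.1 and 27.9 to 31.4) also summed lower in shBicd2 without overlap. Of 6 tested endothelial markers, 3 had a positive and 3 a negative fold change, while all 5 tested stellate markers had a negative one. The part of these cells in the Cyp1b1 values was not tested.

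Ahr, the ligand-activated factor that drives the Cyp1 genes, had a lower mean in shBicd2, where Cyp1a2 had a higher one. It was measured at 14.3, 11.9 and 17.9 FPKM with scramble and 5.64, 11.6 and 11.4 FPKM with shBicd2. Sc4 stood just above sh3, so that the groups met without overlapping, and sh1 was the lowest. The log2 fold change was -0.61 ± 0.29 and the limma adjusted p 0.356. Without sh1 the log2 fold change was -0.31, and with size factors or quantile normalization the groups overlapped. Of 3 tested Ahr targets outside the P450 genes, 2 had a positive and 1 a negative fold change (median 0.16). The negative one was Tiparp, an Ahr target and repressor. Tiparp ranged from 19.0 to 40.1 FPKM with scramble and from 1.95 to 39.1 FPKM with shBicd2. Ahr with its partner Arnt binds a core of GCGTG, and the 300 bases around the start of each Cyp1 gene are shown to compare where this core lies. They run from 250 bases before to 50 after the start, from RefSeq on GRCm38.p6, on the gene's own strand, with the core in capitals (CACGC where it lies on the other strand).
Cyp1a1, chr9:57697363-57697662: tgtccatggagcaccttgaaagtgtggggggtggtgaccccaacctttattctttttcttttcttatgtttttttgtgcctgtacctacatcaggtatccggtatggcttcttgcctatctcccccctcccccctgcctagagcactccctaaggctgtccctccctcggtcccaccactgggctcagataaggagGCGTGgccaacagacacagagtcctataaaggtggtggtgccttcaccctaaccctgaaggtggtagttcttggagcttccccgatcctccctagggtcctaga
Cyp1a2, chr9:57683606-57683905: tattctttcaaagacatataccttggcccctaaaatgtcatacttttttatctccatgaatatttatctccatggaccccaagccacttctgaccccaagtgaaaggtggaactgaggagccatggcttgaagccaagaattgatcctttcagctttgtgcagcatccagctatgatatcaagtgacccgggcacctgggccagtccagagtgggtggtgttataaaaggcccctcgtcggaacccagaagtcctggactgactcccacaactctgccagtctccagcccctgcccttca
Cyp1b1, chr17:79715012-79715311: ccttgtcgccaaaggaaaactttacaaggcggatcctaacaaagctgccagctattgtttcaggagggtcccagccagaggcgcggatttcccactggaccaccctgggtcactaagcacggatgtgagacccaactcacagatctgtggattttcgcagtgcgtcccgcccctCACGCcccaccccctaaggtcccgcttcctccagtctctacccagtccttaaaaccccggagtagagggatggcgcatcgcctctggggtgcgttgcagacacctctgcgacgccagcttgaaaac
The core stood once in the Cyp1a1 window, starting 54 bases before the gene start, once in the Cyp1b1 window, 76 bases before it, and not in the Cyp1a2 window. Over both strands it was in 10 of 52 member promoters (19.2%, for the 47 members matched) and in 32.4% of all 32851 promoters. A match is a description of the letters and shows no binding.

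Cyp2 held the most members, and its subfamilies differed. Cyp2e1, which oxidizes ethanol and paracetamol and is a pericentral enzyme, was the highest P450 member and ranked 45 among all genes. It was measured at 1079, 1148 and 1136 FPKM for scramble (Sc3, Sc4, Sc5) and at 681, 1406 and 1218 FPKM for shBicd2 (sh1, sh3, sh6). The scramble libraries lay between sh1 and the other shBicd2 libraries, the log2 fold change was -0.09 ± 0.27, and without sh1 it was 0.22. Among 10 other pericentral genes 2 had a positive and 8 a negative fold change (median -0.20), beside 41.4% positive over all genes. The sh1 library was the lowest of the 6 for 9 of these 10, as it was for Cyp2e1, and the summed level was 722 FPKM in sh1, 1280 in sh3 and 1197 in sh6, against 1031 to 1225 FPKM with scramble. Among 12 periportal genes 11 had a positive one (median 0.22).

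Cyp2f2, a P450 of periportal hepatocytes, was measured at 213, 262 and 255 FPKM with scramble and 297, 343 and 297 FPKM with shBicd2. All shBicd2 values lay above the scramble values, with a log2 fold change of 0.36 ± 0.16 and a limma adjusted p of 0.336. Cyp2a12, a steroid hydroxylase of mouse liver, was measured at 93.4, 90.01 and 87.6 FPKM with scramble and 130, 126 and 114 FPKM with shBicd2. Both groups were tight and did not overlap, with means of 90.3 ± 2.91 and 123 ± 8.31 FPKM (SD, n = 3), a log2 fold change of 0.44 ± 0.14 and a limma adjusted p of 0.222. Cyp2a5, the coumarin hydroxylase of the same subfamily, was at 92.9, 94.4 and 127 FPKM with scramble and 49.5, 98.8 and 92.6 FPKM with shBicd2. Its groups overlapped with sh1 the lowest, so the Cyp2a sum was 187, 185 and 215 FPKM against 180, 226 and 207 FPKM. The closest relatives of Cyp2a12 and Cyp2a5 are 97.0% (Cyp2a22) and 98.5% (Cyp2a4) identical in coding sequence, and how reads that fit both copies were treated is not given in the sources used here.

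Cyp2b10, the classical target of the receptor CAR (Nr1i3), varied more within the groups than between them. It was measured at 2.98, 13.3 and 1.33 FPKM with scramble and 2.15, 9.77 and 4.73 FPKM with shBicd2, with a log2 fold change of 0.18 ± 0.71. Of 9 tested CAR and PXR targets outside the P450 genes 6 had a positive fold change, with a median of 0.34. Sult1d1, a sulfotransferase on that list, was measured at 35.9, 35.4 and 38.1 FPKM with scramble and 44.7, 63.3 and 60.3 FPKM with shBicd2, without overlap. Slco1a4, an organic anion transporter, stayed between 0.684 and 3.38 FPKM and overlapped.

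Cyp2c, with 13 members on chromosome 19, held the largest sum of the subfamilies in scramble. The sum was 1265, 1292 and 1375 FPKM for scramble (Sc3, Sc4, Sc5) and 1113, 1371 and 1256 FPKM for shBicd2 (sh1, sh3, sh6). Cyp2c70, which makes muricholic acids from bile acids in mice, gave 47.9% of it in scramble and 48.4% in shBicd2. Cyp2c70 was measured at 560, 653 and 672 FPKM with scramble and 621, 603 and 587 FPKM with shBicd2, all within the scramble range. Cyp2c29 and Cyp2c50, epoxygenases of fatty acids, also overlapped, with log2 fold changes of -0.12 and 0.09.

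Along the chromosome a run of 4 neighbours, Cyp2c67, Cyp2c68, Cyp2c40 and Cyp2c69, had negative fold changes throughout (median -0.61), whereas the 8 other tested Cyp2c members were 6 positive and 2 negative (median 0.21). The run was singled out after its values were seen, so the split is a description. Cyp2c67 (chr19:39608842-39649051, minus strand) was measured at 196, 177 and 195 FPKM for scramble (Sc3, Sc4, Sc5) and at 52.0, 122 and 129 FPKM for shBicd2 (sh1, sh3, sh6). All shBicd2 values were below all scramble values and sh1 was the lowest. The means were 190 ± 10.6 and 101 ± 42.5 FPKM (SD, n = 3), with a log2 fold change of -1.01 ± 0.34, a limma adjusted p of 0.234, and -0.59 without sh1. Cyp2c68 was measured at 80.5, 67.6 and 90.3 FPKM with scramble and 59.7, 65.7 and 72.9 FPKM with shBicd2, where only sh6 reached the scramble range. Cyp2c40 was measured at 13.0, 10.98 and 19.8 FPKM with scramble and 2.82, 6.74 and 20.7 FPKM with shBicd2. Here sh1 and sh3 were below and sh6 above every scramble library, and Cyp2c69 had the same order, from 3.30 to 5.99 FPKM with scramble and 1.67, 2.11 and 7.11 FPKM with shBicd2. When libraries were weighted by how well they fit their group (limma array weights), the fold changes of Cyp2c40 and Cyp2c69 turned positive, at 0.39 and 0.46, and without sh1 they were -0.23 and -0.11.

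**Figure D3:**
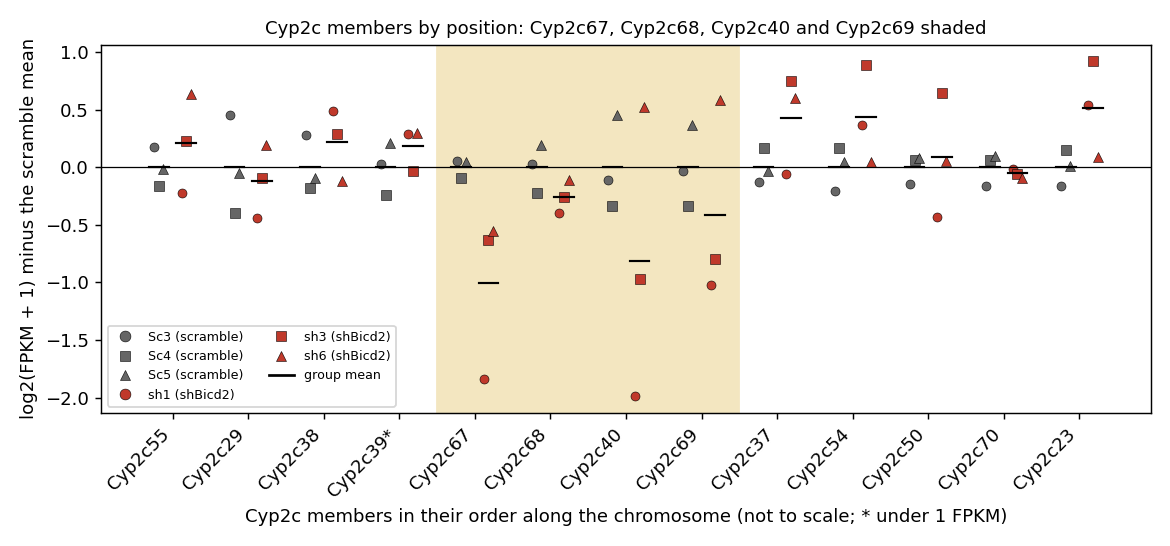
Deviation of each library from the scramble mean (log2(FPKM + 1)) for the 13 Cyp2c members in their order along the chromosome, with grey scramble symbols, red shBicd2 symbols and bars at group means. In the shaded run from Cyp2c67 to Cyp2c69 the sh1 circles and sh3 squares lie below the scramble mean, and for Cyp2c40 and Cyp2c69 the sh6 triangle lies above it.

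The 4 neighbours were close copies. Their coding sequences were 92.3% to 97.7% identical over 6 pairs, against 63.6% to 80.3% to the other Cyp2c members over 36 pairs. Gaps counted as differences, and the Cyp2c40 sequence used had 1563 bases against 1476 in Cyp2c67, Cyp2c68 and Cyp2c69. Pairs without Cyp2c40 were 96.5% to 97.7% identical. The heme loops of the 4 neighbours were identical to the Cyp2c67 sequence given above. Their promoters were alike as well, and an 80-base stretch is shown because it holds the same letters for a nuclear receptor motif in all 4. The stretches come from RefSeq on GRCm38.p6 and are written on the minus strand. Capitals mark bases that differ from Cyp2c40 in an alignment that allows gaps. A Cyp2c40 base skipped by that alignment leaves no capital. In Cyp2c67 the capitals are therefore fewer than the differences and need not match a base-by-base comparison.
Cyp2c40, chr19:39812795-39812874: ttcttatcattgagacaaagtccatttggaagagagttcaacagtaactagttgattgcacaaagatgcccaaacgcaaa
Cyp2c67, chr19:39649103-39649182: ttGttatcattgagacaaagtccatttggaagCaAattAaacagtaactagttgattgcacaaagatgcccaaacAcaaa
Cyp2c68, chr19:39741114-39741193: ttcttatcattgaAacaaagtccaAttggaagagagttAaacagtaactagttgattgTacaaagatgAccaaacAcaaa
Cyp2c69, chr19:39886780-39886859: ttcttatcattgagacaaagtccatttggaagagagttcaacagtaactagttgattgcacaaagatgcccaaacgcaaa
Cyp2c67 and Cyp2c68 each differed from Cyp2c40 at 6 of the 80 bases, and Cyp2c69 at 0. All 4 stretches hold CAAAGTCCA, letters of the motif bound by the hepatocyte factor Hnf4a, which were searched only after these sequences had been read. On both strands they stood in 6 of 52 member promoters (11.5%), those of the 4 neighbours, Cyp2c70 and Cyp3a11, and in 0.475% of all promoters. The members that hold these letters had fold changes of both signs. Other letters searched were AGGTCA, a nuclear receptor site found in 26.9% of member promoters and 16.3% of all promoters, TTGCGCAA for C/EBP factors (0 member promoters, 0.183% of all) and TTATGTAA for PAR bZip factors (0, and 0.938% of all).

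Cyp2d, the subfamily of basic drugs such as debrisoquine in humans, was higher as a sum, at 706, 809 and 733 FPKM for scramble (Sc3, Sc4, Sc5) and 1007, 915 and 870 FPKM for shBicd2 (sh1, sh3, sh6). The groups did not overlap and the means were 1.24 times apart. Of the 7 tested members 6 had a positive fold change. Cyp2d10 was measured at 216, 253 and 229 FPKM with scramble and 271, 299 and 256 FPKM with shBicd2, with sh6 just above Sc4, a log2 fold change of 0.24 ± 0.15 and a limma adjusted p of 0.471. On the TPM scale its groups overlapped. Cyp2d26 reached 349 FPKM in sh1 and stayed at 182 to 222 FPKM in the other 5 libraries. Cyp2d9, a male-biased member, was at 219, 251 and 219 FPKM with scramble and 197, 319 and 278 FPKM with shBicd2, so that sh1 was the lowest of the 6 where it was the highest for Cyp2d26.

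A pair of Cyp2d members annotated or named as pseudogenes had shBicd2 values on both sides of scramble. Cyp2d13, annotated by RefSeq as a transcribed pseudogene at chr15:82636750-82642045, was measured at 29.1, 33.2 and 22.8 FPKM with scramble and 113, 15.1 and 65.6 FPKM with shBicd2. Cyp2d36-ps, a pseudogene by its name, was at 2.18, 2.42 and 1.82 FPKM with scramble and 9.89, 1.18 and 8.79 FPKM with shBicd2. In both, sh1 and sh6 were above and sh3 below every scramble library. With all libraries the log2 fold changes were 0.77 and 0.97, with limma adjusted p of 0.599 and 0.446. Without sh1 they were 0.17 and 0.56, with limma adjusted p of 0.901 and 0.646. Without sh3 both passed the threshold, with log2 fold changes of 1.58 and 1.72 and adjusted p of 0.0447 and 0.0278 (limma), as did Cyp4a31, and 0.296% of all genes were called higher in that fit. In 2.55% of all genes a lower call was made there, and in no member. How reads that also fit coding relatives were assigned is not given in the sources used here.

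Cyp2j9, an arachidonic acid epoxygenase, had the smallest p of all members. It was measured at 1.26, 1.35 and 1.85 FPKM with scramble and 2.90, 4.58 and 2.39 FPKM with shBicd2, on 75 to 254 reads. All shBicd2 libraries were higher, with a log2 fold change of 0.76 ± 0.21 and a limma adjusted p of 0.198. The abundant member of that subfamily, Cyp2j5, was at 139, 135 and 148 FPKM with scramble and 178, 129 and 112 FPKM with shBicd2 and made up most of the Cyp2j sum, whose means were 161 and 162 FPKM. Cyp2r1, a vitamin D 25-hydroxylase, and Cyp2u1, a fatty acid hydroxylase, were highest in sh1 and lowest in sh3, with 6.57 and 2.22 FPKM for Cyp2r1 and 3.94 and 0.276 FPKM for Cyp2u1.

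Cyp3a, the main drug-metabolizing subfamily, had a higher sum in every shBicd2 library. The sum was 386, 478 and 360 FPKM for scramble (Sc3, Sc4, Sc5) and 675, 524 and 590 FPKM for shBicd2 (sh1, sh3, sh6), with means 1.46 times apart. The 4 tested members had positive fold changes with a median of 0.66. Cyp3a11 (chr5:145854426-145879964, minus strand), the main hepatic Cyp3a of the mouse and a PXR target, gave 67.7% of the sum in scramble and 63.3% in shBicd2. It was measured at 260, 329 and 239 FPKM with scramble and 314, 385 and 434 FPKM with shBicd2. Only sh1 lay within the scramble range. The means were 276 ± 46.9 and 378 ± 60.3 FPKM (SD, n = 3), with a log2 fold change of 0.45 ± 0.20 and a limma adjusted p of 0.330.

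The excess of Cyp3a in sh1 came from other members. Cyp3a25 was measured at 52.4, 67.2 and 58.6 FPKM with scramble and 261, 79.8 and 61.6 FPKM with shBicd2, and its log2 fold change of 0.87 ± 0.50 was 0.24 without sh1. Cyp3a59, whose coding sequence is 97.5% identical to Cyp3a25, was at 3.23, 3.68 and 2.55 FPKM with scramble and 21.2, 4.15 and 4.78 FPKM with shBicd2. Its groups did not overlap, and its log2 fold change of 1.08 ± 0.53 was 0.40 without sh1. As close copies can share reads, the values of these 2 genes are uncertain. Nr1i2, the PXR receptor itself, was measured at 26.8, 20.3 and 28.1 FPKM with scramble and 25.3, 22.8 and 27.6 FPKM with shBicd2. All shBicd2 values lay inside the scramble range, and the log2 fold change was 0.02 ± 0.18 with a limma adjusted p of 0.970.

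Cyp4, the family of fatty acid omega-hydroxylases, had 4 positive and 10 negative fold changes (median -0.10), and its sum differed little, with means 0.986 times apart. Cyp4a12a, a male-biased arachidonic acid hydroxylase, was measured at 72.5, 96.1 and 69.1 FPKM for scramble (Sc3, Sc4, Sc5) and at 31.7, 76.6 and 114 FPKM for shBicd2 (sh1, sh3, sh6). The shBicd2 libraries spanned the scramble range on both sides, with sh1 the lowest. Its close copy Cyp4a12b (98.6% identical in coding sequence) was at 15.8, 26.1 and 26.1 FPKM with scramble and 3.73, 25.9 and 24.1 FPKM with shBicd2, again with sh1 the lowest. The log2 fold change of Cyp4a12b was -0.65, and 0.17 without sh1. Cyp4a10 and Cyp4a14, the classical inducible targets of the fatty acid receptor PPAR alpha, both overlapped, at 2.40 to 11.4 and 3.56 to 19.6 FPKM for Cyp4a10 and 1.82 to 4.25 and 1.94 to 2.92 FPKM for Cyp4a14. Cyp4a31 was measured at 0.896, 1.24 and 0.920 FPKM with scramble and 2.60, 1.08 and 2.44 FPKM with shBicd2. Its sh3 value lay among the scramble values, and the limma adjusted p was 0.310 with all libraries and 0.0442 without sh3.

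Genes of PPAR alpha outside the P450 families were mostly lower in mean. Of 12 tested targets outside the P450 genes 4 had a positive and 8 a negative fold change (median -0.15), beside 41.4% positive over all genes. Pdk4, a brake on glucose oxidation, was measured at 14.1, 8.43 and 17.1 FPKM with scramble and 0.686, 2.06 and 2.24 FPKM with shBicd2, with a log2 fold change of -2.42 ± 0.33. Plin2, a coat protein of lipid droplets, was at 267, 329 and 272 FPKM with scramble and 52.2, 73.8 and 184 FPKM with shBicd2, with a log2 fold change of -1.68 ± 0.43. Neither overlapped, and neither passed the adjusted threshold, with 0.152 the smallest adjusted p on the list (limma).

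Among the Cyp4f genes, which inactivate leukotrienes and oxidize long-chain fatty acids, Cyp4f17 (chr17:32506050-32530143) was the tested member whose groups did not overlap. It was measured at 11.3, 11.2 and 9.44 FPKM with scramble and 4.84, 6.91 and 8.38 FPKM with shBicd2. No shBicd2 library reached a scramble library, and the means were 10.6 ± 1.04 and 6.71 ± 1.77 FPKM (SD, n = 3), with a log2 fold change of -0.62 ± 0.20 and a limma adjusted p of 0.224. Cyp4f14, the most abundant Cyp4f, was at 51.2, 43.4 and 55.7 FPKM with scramble and 47.6, 58.3 and 38.4 FPKM with shBicd2. Cyp4f15 reached 49.2 FPKM in sh1 and stayed at 21.7 to 27.4 FPKM in the other libraries. Cyp4v3 and Cyp4b1 overlapped between the groups, with log2 fold changes of -0.08 and -0.13.

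Of 19 other receptors and factors that regulate hepatic P450 genes, 7 had a positive and 12 a negative fold change (median -0.13). Over all genes tested, 41.4% were positive. Nr3c1, the glucocorticoid receptor, was measured at 15.2, 11.3 and 15.9 FPKM with scramble and 8.39, 10.7 and 7.71 FPKM with shBicd2, and its log2 fold change was -0.61 ± 0.19. Ppara was measured at 24.4, 17.4 and 16.03 FPKM with scramble and 8.43, 9.87 and 15.6 FPKM with shBicd2, and its log2 fold change was -0.74 ± 0.26. Both were lower in every shBicd2 library than in any scramble library, as were 18.7% of all genes tested. Ppara in sh6 lay just below Sc5. Neither gene passed the adjusted threshold.

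Spread within the groups was unequal for most genes, members included. The SD of log2(FPKM + 1) was larger in shBicd2 for 40 of 52 tested members (76.9%), beside 81.3% of all genes tested. The sh1 library was the highest or the lowest of the 6 for 34 members (65.4%), 17 each way, beside 62.9% of all genes. The median deviation of the members from the scramble mean was 0.06 in sh1, 0.10 in sh3 and 0.12 in sh6, beside -0.06, 0.09 and 0.02 in Sc3, Sc4 and Sc5. In sh1, Cyp3a59, Cyp3a25, Cyp2d13 and Cyp2d36-ps stood out above and Cyp4a12b, Cyp2c40, Cyp2c67 and Cyp4a12a below. All 13 mitochondrially encoded transcripts had a positive fold change, with sums of 35073 to 42565 FPKM with scramble and 48264 to 57615 FPKM with shBicd2, and the part of this in the P450 values was not tested.

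**Figure D4:**
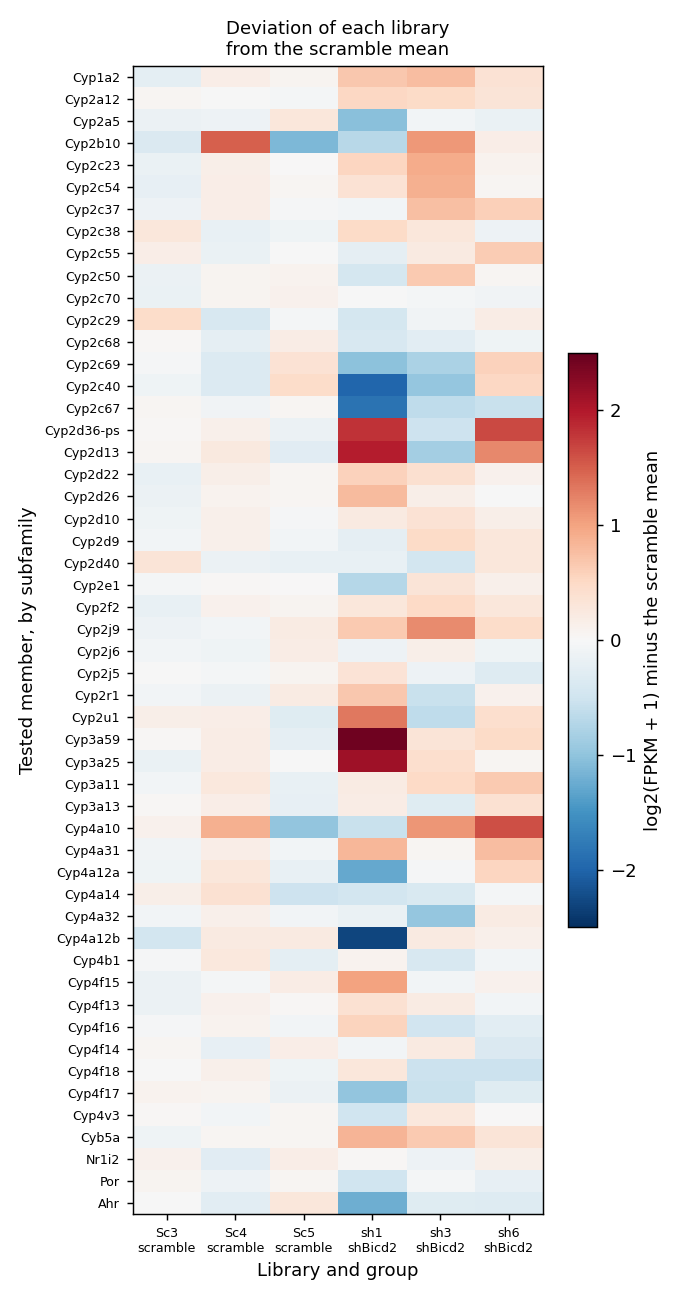
Colour map of log2(FPKM + 1) minus the scramble mean for the 52 tested members (rows, by subfamily) in the 6 libraries (columns), red above and blue below. The sh1 column holds the strongest colours of both signs, from Cyp3a59 and Cyp3a25 above to Cyp4a12b, Cyp2c40 and Cyp2c67 below.

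The 12 members under 1 FPKM were Cyp1a1, Cyp1b1, Cyp2a4, Cyp2a22, Cyp2c39, Cyp2d11, Cyp2d12, Cyp2g1, Cyp2s1, Cyp2t4, Cyp3a44 and Cyp4f41-ps. Groups did not overlap in 4 that were higher in shBicd2 (Cyp2d11, Cyp2g1, Cyp3a44 and Cyp4f41-ps), beside 4.03% of the 4517 genes under that level. They did not overlap in 1 that was lower (Cyp1b1), beside 11.5% of those genes. Cyp2d11, a copy of Cyp2d10 at 94.7% coding identity, was measured at 0.389, 0.386 and 0.353 FPKM with scramble and 1.27, 0.984 and 0.930 FPKM with shBicd2. Cyp3a44, a female-biased member, was covered by 1 to 7 reads.

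**Figure D5:**
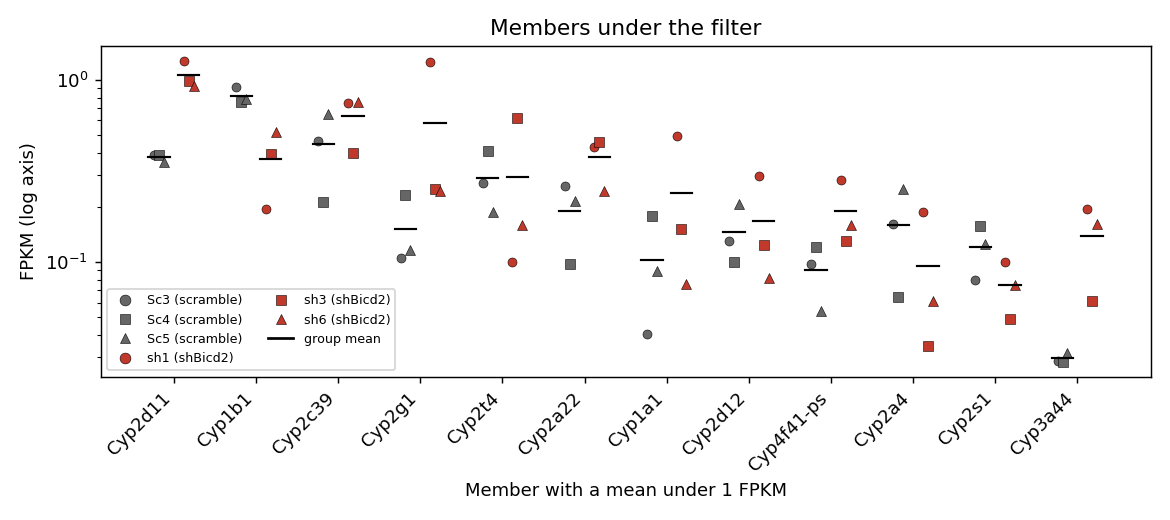
FPKM (log axis) of the 12 members with a mean under 1 FPKM, 1 symbol per library, scramble in grey and shBicd2 in red, with bars at group means. Cyp2d11 has all red symbols above the grey ones, from 0.930 to 1.27 FPKM, and Cyp1b1 all red symbols below them.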

How the data were processed

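Liver RNA was extracted with Trizol and checked on a Bioanalyzer, and TruSeq libraries were sequenced on a NovaSeq, per the labels' protocols. The submitters' processing notes name HISAT2 2.0.5, featureCounts 1.5.0-p3 and the mm10 build. How reads that fit several genes were treated, which annotation was used and whether strand counted is not given in the sources used here. Per gene and library, the authors deposited FPKM, without scaling between libraries beyond the total as far as stated. Every value was above 0, so genes at 0 in a library were not analysed here. Columns name the group but no labelled replicate, and 0 columns of other samples were present. Exon lengths of GENCODE M21 turned low values into whole reads (within 0.02 of a read in all libraries for 98.2% of 14339 matched genes, and for all 63 matched members).

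Values were taken as log2(FPKM + 1). Genes averaging 1 FPKM or more were fitted with limma 3.58.1 (lmFit, eBayes with trend) in R 4.3.3, with two-sided tests, Benjamini-Hochberg adjustment over 10152 genes and a threshold of 0.05. Members and lists were chosen with earlier results of these data known. The rule for named members took Por, Cyb5a, Nr1i2 and Ahr, the highest member of each subfamily, members of at least 100 FPKM, those past the threshold and the 6 of smallest p in each direction. Other members named were chosen after their values were seen. From each list up to 2 genes of smallest p were named. Coding sequences came from GENCODE M21 and promoters from RefSeq (GRCm38.p6). The fit was tested on simulated data with the same spread in both groups, so that test does not cover the unequal spread of these libraries. Alternatives were a pseudocount of 0.1, no filter, a mean of at least 5 FPKM, the TPM scale, size factors, quantile normalization, eBayes without trend, array weights, voom on recovered reads and leaving out each library. Plots used matplotlib 3.10.9 (Python 3.11.15).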

Additional observations from a re-analysis of the deposited data

How the results depend on the processing

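With 3 libraries a group, calls depended on the weight of single libraries. No paired analysis was possible because the columns carry no labelled replicate number. With array weights, which gave sh6 4.67 and sh1 0.18, 2709 genes passed the threshold, 15 members among them (12 higher, beside 8.37% of all genes, and 3 lower, beside 18.3%). Leaving out a library gave 0 to 289 genes and 0 to 3 members, with 3 members without sh3. Voom on recovered reads called 0 of 51 members. Members higher at an unadjusted p under 0.05 numbered 8 with no filter, 3 at a mean of at least 5 FPKM, 8 with size factors, 15 with array weights and 2 to 11 with a library left out. Those lower numbered 6 with array weights and 0 to 4 with a library left out. Members separate and higher numbered 11 with no filter and 7 to 14 with a library left out, and those separate and lower 6 on the TPM scale and 4 to 8. With fewer libraries in a group, separation comes more easily in any gene. No share of all genes is given beside these unadjusted and separation counts, so they are not a result about the members. The median fold change of members was -0.0051 on the TPM scale, 0.18 with size factors, 0.18 with array weights and 0.076 to 0.13 with a library left out. The median of all genes was -0.06, -0.16 on the TPM scale and 0.01 with size factors, and 29, 25 and 35 members were then positive.

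Of 430 log2 fold changes of 29 named members, 390 kept their sign and side of the threshold, 10 newly passed and 30 turned sign, in 13 members. With size factors Cyp2c70 was 0.036, Cyp2e1 0.00031, Cyp2j5 0.055, Cyp4f14 0.018 and Cyp4v3 0.013. On the TPM scale Cyp2c50 was -0.0033, Cyp2r1 -0.0070 and Nr1i2 -0.074. With array weights Cyp2e1 was 0.12, Cyp4a12a 0.48 and Cyp4v3 0.00091. The cause was not tested. With a library left out the range was -0.38 to 0.93 for Cyp2b10, -0.32 to 0.11 for Cyp2c29, -0.19 to 0.35 for Cyp2c50, -0.30 to 0.22 for Cyp2e1 and -0.22 to 0.11 for Cyp2j5. It was -0.22 to 0.40 for Cyp2r1, -0.11 to 0.87 for Cyp2u1, -0.66 to 0.25 for Cyp4a12a, -0.25 to 0.014 for Cyp4b1, -0.22 to 0.078 for Cyp4f14, -0.24 to 0.14 for Cyp4v3 and -0.12 to 0.11 for Nr1i2. Ratios of subfamily sums ranged from 1.40 to 1.65 for Cyp1a, 1.19 to 1.29 for Cyp2d and 1.37 to 1.60 for Cyp3a, and from 0.717 to 1.22 for Cyp4a.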

Other observations

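P450 genes outside families 1 to 4 were also uneven. Of 9 tested, 4 had a positive and 5 a negative fold change, with a median of -0.19. Cyp7a1, the rate-limiting enzyme of bile acid synthesis, was measured at 0.539, 0.281 and 0.433 FPKM for scramble (Sc3, Sc4, Sc5) and 11.9, 0.447 and 2.90 FPKM for shBicd2 (sh1, sh3, sh6). Its sh1 and sh6 values lay above every scramble library and its sh3 value within them. Cyp39a1, an oxysterol hydroxylase, had means of 2.62 FPKM in scramble and 4.34 FPKM in shBicd2, without overlap. Among periportal genes, Aldh1b1, a mitochondrial aldehyde dehydrogenase, had means of 9.60 and 22.2 FPKM, without overlap. Acute phase genes of hepatocytes were split evenly, with 8 positive and 8 negative fold changes (median 0.01).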
